A study of Mus musculus with 16 samples.

Results

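The Cre control testis libraries, 2 from postnatal day 14 (P14) and 4 from postnatal day 16 (P16), were compared to describe how testis RNA changed between the stages in these mice. They are 6 of the 16 libraries of a mouse RNA-seq series on Ythdc2, a gene for a helicase with a YTH domain that reads m6A marks on RNA and is needed for male and female meiosis. The Cre control libraries were taken as labelled, with no measured value used in the choice. The study's other samples are testes labelled control and testes of Ythdc2 conditional knockout (cKO) mice at the same stages. The treatment text attached to every sample says that control and cKO mice received tamoxifen at 10 mg/ml on P12 and P13. That text does not name the Cre control apart from the control. Tamoxifen is used to switch on an inducible Cre recombinase. For the Cre control the labels give neither the Cre line and its promoter nor the state of the Ythdc2 alleles or the strain, and the same holds for the group labelled control. Nothing in the labels says whether the libraries came from separate animals, so the p-values measure the spread between these libraries, which may be partly technical.

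In the young mouse, the first germ cells enter meiosis nearly in step, and the testis moves through meiotic prophase as a cohort. Spermatogonia divide by mitosis and, under retinoic acid, switch on Stra8 and Meiosin and become spermatocytes, which break and repair their DNA and pair their chromosomes in leptotene and zygotene. In pachytene the chromosomes are fully paired, genes for the later sperm begin to be transcribed, and the unpaired X and Y chromosomes are silenced. Sertoli cells nurse the germ cells, peritubular myoid cells surround the tubule, and Leydig cells, macrophages and vessels lie between tubules.

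All libraries compared here had ribosomal RNA removed with the same kit (NEBNext rRNA Depletion Kit v2) and held 14494867 to 23200252 reads on genes. The stages were deposited in separate tables, each scaled on its own, so every library was rescaled to the same total before the stages were set side by side. Levels are given in CPM, reads per 1000000 gene reads, and a change is P16 minus P14 on the scale log2(level + 0.5), which understates the change of low genes. A gene is said to have risen or fallen only where limma gave an adjusted p under 0.05 (Benjamini-Hochberg over the 18857 genes tested). By the flow cell names in the file headers, both P14 libraries and P16 replicate 1 were sequenced in 1 run, and P16 replicates 2 to 4 in another. With run as a covariate, the stage change rests on P16 replicate 1 alone against the P14 pair. The tissue label was checked against markers. Sertoli cell genes such as Sox9 (199 and 198 CPM at P14 and 174, 221, 189.9 and 209 at P16) were present in each library, the 7 epididymis markers summed to no more than 0.872 CPM, and the spermatid genes Tnp2, Prm1 and Prm2 had no read in any of the 6. They belong to a spermatid chromatin list of which 5 of 10 matched genes had no read. That list summed to 1908 and 2358 CPM at P14 and to 1697 to 2818 at P16. Of its 4 tested members 1 fell, a call lost without P14 replicate 1 or P16 replicate 3.

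From P14 to P16, 1587 genes rose (8.42% of those tested) and 590 fell (3.13%), while the median change of all genes was -0.02. The rises were the larger changes. Of the genes that rose, 892 did so by at least 1 on the log2 scale and 58 by at least 3, against 24 and 1 of those that fell. A gene could pass the filter (at least 0.5 CPM in at least 2 libraries) on its P16 libraries alone. Among the 1587 genes that rose, 352 had a P14 mean under 1 CPM. Quantile normalization gave 1371 rises and 819 falls, a share of rises of 62.6% against 72.9%. TMM scaling moved the share the other way, to 79.9%, with 1738 rises and 438 falls. The falls were the less stable side: with run as a covariate 350 genes fell, 194 of them among the 590, whereas 1576 rose, 1310 of them among the 1587. Without P14 replicate 1 the counts were 529 rises and 61 falls, without P16 replicate 3 they were 965 and 131, and without P16 replicate 2 there were 230 falls. Without P16 replicate 4 there were 986 falls. The fit with run rests on P16 replicate 1, the highest P16 library for 75.7% of the genes that rose. That fit therefore does not weigh rises and falls alike.

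The P16 libraries were not alike. Among the 1587 genes that rose, P16 replicate 1 held the highest of the P16 values for 75.7% and replicate 4 the lowest for 80.3%, against 30.1% and 23.7% over all genes tested. The median rise of these genes over the P14 mean was 1.43 in replicate 1, 1.00 in replicate 2, 1.25 in replicate 3 and 0.77 in replicate 4. At P14, replicate 2 was above replicate 1 for 73.1% of them, against 53.6% of all genes. The medians of the pachytene, acrosome, axoneme and transcription factor lists had replicate 1 highest and replicate 4 lowest as well. In the piRNA, metabolic isoform, crossover and autosomal retrogene copy lists replicate 1 was highest too, but replicate 2 was lowest. The cause of this spread was not tested.

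**Figure D1:**
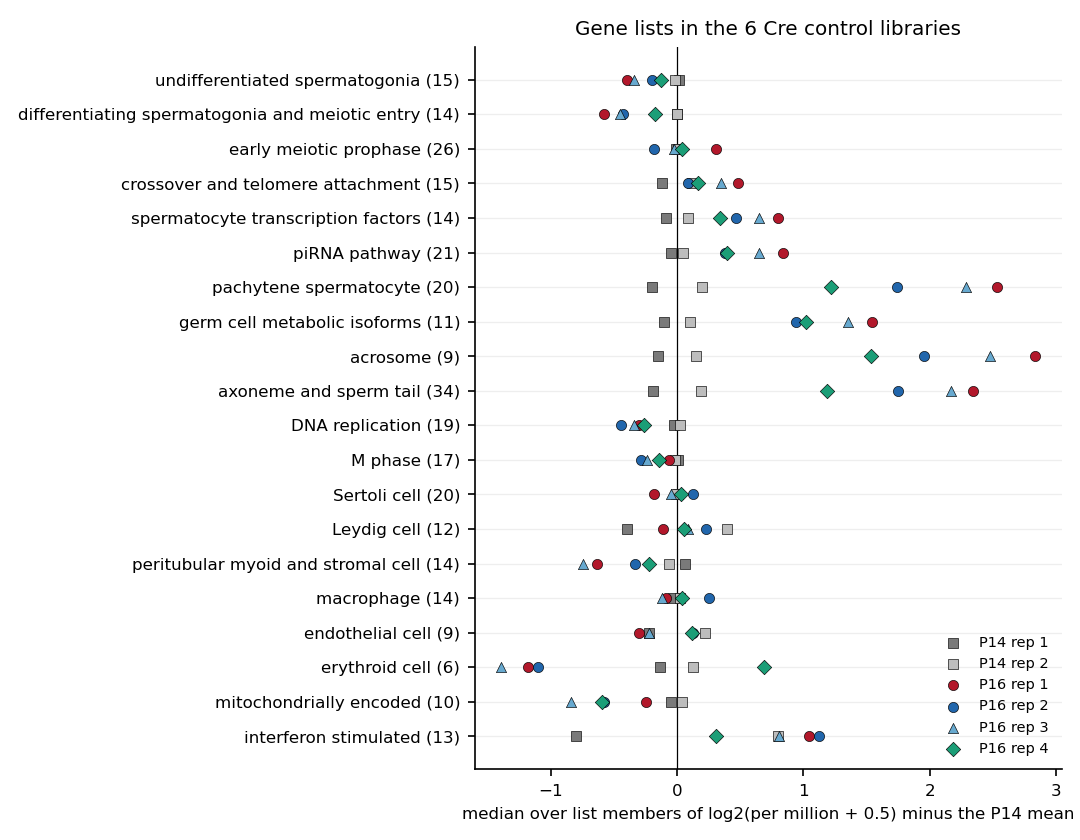
Median level of each gene list in each of the 6 Cre control libraries, on the horizontal axis as log2(CPM + 0.5) minus the P14 mean, with the number of tested members in brackets. Each point is 1 library. For pachytene, acrosome and axoneme genes all 4 P16 libraries lie to the right of both P14 libraries, with replicate 1 farthest and replicate 4 nearest.

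Among pachytene spermatocyte genes, 18 of the 20 tested rose and none fell, with a median change of 2.02 (all genes -0.02). Summed over the list, the level was 1188 and 1540.3 CPM at P14 and 5124, 3306, 4286 and 2906 at P16. In bulk tissue, more cells of a type and more RNA per cell cannot be told apart. Ldhc, the lactate dehydrogenase of spermatocytes and sperm, stood at 33.3 and 54.2 CPM at P14 and 475, 286, 391 and 204 at P16. Every P16 library was above both P14 libraries, while 37.3% of all genes tested had groups that did not overlap in one direction or the other. The change of Ldhc was 2.91 ± 0.29, adjusted p = 0.000853, where ± gives the standard error here and below. Crisp2, a cysteine-rich protein of the acrosome and tail, rose from 6.90 and 11.6 CPM at P14 to 115, 60.7, 87.2 and 42.0 at P16, a change of 2.92 ± 0.33, adjusted p = 0.000927. Pgk2, the retrogene-encoded phosphoglycerate kinase of germ cells, was close to the detection floor at P14, with 0.186 and 0.552 CPM at P14 and 13.3, 6.32, 8.53 and 1.97 at P16 (2.99 ± 0.54, adjusted p = 0.00541). Calr3 and Tbata, the other members, were not called, with changes of 0.001 ± 0.22 and -0.28 ± 0.23. Without P14 replicate 1, 11 of the 18 rises were still called (Pgk2 was not), and without any other single library at least 16 were.

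Genes for the sperm tail rose together: 32 of the 34 tested members of the axoneme list rose and none fell, with a median of 1.86. Dnah17, an outer arm dynein heavy chain of the sperm tail, rose from 7.39 and 9.38 CPM at P14 to 144, 88.7, 127 and 51.5 at P16 (3.45 ± 0.33, adjusted p = 0.000853). Dnah6, an inner arm dynein heavy chain, rose by 3.37 ± 0.34 from 0.683 and 1.24 CPM at P14 to 21.04, 14.2, 18.0 and 7.73 at P16. Tekt3, a tektin filament protein, had 0 and 2 reads at P14 and stood at 0 and 0.138 CPM at P14 and 7.15, 5.12, 6.12 and 1.13 at P16. Spag6l, a protein of the central pair, rose from 4.66 and 9.59 CPM at P14 to 81.6, 45.3, 73.0 and 32.4 at P16 (2.93 ± 0.35, adjusted p = 0.00096). These 4 genes share the same order of libraries, with replicate 1 highest and replicate 4 lowest at P16. Dnai2 (1.21 ± 0.39, adjusted p = 0.0735) and Akap3 (0.43 ± 0.23, adjusted p = 0.257) were the tested members not called, while Ropn1, Akap4 and Rsph4a, which encode fibrous sheath and radial spoke proteins, stayed under 0.5 CPM. Without P14 replicate 1, 19 of the 32 rises were still called (Tekt3 was not), against at least 31 without any other library.

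Of the 18 acrosome genes, 9 passed the filter on low values, so the other 9, among them Spaca4 and Spam1 with no read, are not covered by the count. Of the 9, 7 rose, with a median of 2.20. Spink2, an inhibitor of the acrosomal protease, rose from 1.12 and 1.72 CPM at P14 to 32.0, 14.7, 22.8 and 8.86 at P16 (3.25 ± 0.40, adjusted p = 0.00101). Spata16, a Golgi protein of acrosome formation, rose by 3.04 ± 0.34 from 3.04 and 3.86 CPM at P14 to 49.9, 26.6, 43.6 and 17.5 at P16. Zpbp2, a zona pellucida binding protein, changed by 2.54 ± 0.42 and Dpy19l2, which anchors the acrosome to the nucleus, by 2.45 ± 0.39; both calls were lost without P14 replicate 1. The germ cell isoforms of energy metabolism rose in 9 of 11 tested members (median 1.224). Slc2a3, a glucose transporter, went from 82.2 and 106 CPM at P14 to 686, 484, 626 and 336 at P16 (2.45 ± 0.23, adjusted p = 0.000853), and Cox8c, a testis subunit of cytochrome c oxidase, from 12.98 and 20.1 CPM at P14 to 84.2, 57.7, 72.0 and 45.8 at P16 (1.94 ± 0.23, adjusted p = 0.000952). Slc25a31, the germ cell ADP/ATP carrier, was not called at -0.04 ± 0.11.

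piRNAs are small RNAs that guide PIWI proteins against transposons and, in pachytene, come from long precursor transcripts. Of the 21 piRNA pathway genes, 11 rose and none fell, with a median of 0.55. The largest rises were those of Tdrd6, a tudor protein of the chromatoid body, at 6.90 and 9.59 CPM at P14 and 117, 71.5, 107 and 38.9 at P16 (3.16 ± 0.36, adjusted p = 0.000927), and Piwil1, the PIWI protein of pachytene spermatocytes, at 56.0 and 85.3 CPM at P14 and 455, 308, 419.9 and 254 at P16 (2.33 ± 0.23, adjusted p = 0.000853). Tdrd5 and Tdrd1, further tudor proteins, rose by 1.28 ± 0.17 and 1.12 ± 0.15. In contrast Piwil4, the PIWI protein of fetal germ cells, was not called (-0.25 ± 0.24, adjusted p = 0.542). A total of 15 of the 21 rose with run as a covariate, and the median was 0.84.

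Among spermatocyte transcription factors 8 of 14 rose and 3 fell, a split within the list. Rfx2, which drives cilium and tail genes, stood at 43.7 and 51.3 CPM at P14 and 159, 111, 150.04 and 96.9 at P16 (1.41 ± 0.18, adjusted p = 0.00117), and Rfx4 of the same family at 7.21 and 8.003 CPM at P14 and 29.8, 17.0, 22.6 and 17.6 at P16 (1.42 ± 0.22, adjusted p = 0.0023). Hsf5, a heat shock factor of spermatocytes, rose by 1.26 ± 0.18, and Kctd19, a partner of Zfp541 in meiotic chromatin, by 1.05 ± 0.16. Mybl1 (A-MYB), a regulator of pachytene genes and piRNA precursors, had overlapping groups at 59.6 and 79.5 CPM at P14 and 112, 75.7, 90.2 and 73.3 at P16 and was not called (0.33 ± 0.17, adjusted p = 0.253). Those that fell were Taf4b (-0.69 ± 0.11), a subunit of the general factor TFIID in germ cells, X-linked Taf7l (-0.62 ± 0.12), likewise a TFIID subunit, and Nr6a1 (-0.47 ± 0.10), an orphan nuclear receptor. Without P14 replicate 1, 4 of the 8 rises and 1 of the 3 falls were called, and with run as a covariate 10 rose and 2 fell.

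Promoters of the genes that rose were searched for 3 sequence words on both strands, in windows from 250 bases before to 50 after the start (RefSeq, GRCm38.p6). They are TAACNGNC, the word of the MYB family, GTTGCCNNG, part of the X-box of the RFX family, and TGACGTCA, the cyclic AMP response element that CREM binds. Of 9830 tested genes with exactly 1 window, the MYB word was found in 5.90%, in 11.4% of the 955 that rose and in 3.63% of the 331 that fell. The RFX word was found in 5.95%, 13.8% and 4.23%, and the CREM word in 3.05%, 2.62% and 3.63%. Over all 32851 windows of the table the shares were 6.09%, 5.004% and 1.79%. A match is a word in a window and not a shown binding site. Below are 4 such windows of genes that rose, picked after their values were seen, with Spag6l holding all 3 words, Pgam2 and Piwil1 the MYB word, and Rfx2 the RFX word. Capitals mark the words, in some as their reverse complement, and each window runs 5′ to 3′ on the gene's strand.
Spag6l (chr16:16829314-16829613, minus strand): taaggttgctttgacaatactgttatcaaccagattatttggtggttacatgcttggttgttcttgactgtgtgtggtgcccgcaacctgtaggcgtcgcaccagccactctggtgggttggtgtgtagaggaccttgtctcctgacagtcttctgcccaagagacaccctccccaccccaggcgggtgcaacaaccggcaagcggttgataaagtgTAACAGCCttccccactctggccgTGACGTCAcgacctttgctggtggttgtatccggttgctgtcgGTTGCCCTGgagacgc
Pgam2 (chr11:5803747-5804046, minus strand): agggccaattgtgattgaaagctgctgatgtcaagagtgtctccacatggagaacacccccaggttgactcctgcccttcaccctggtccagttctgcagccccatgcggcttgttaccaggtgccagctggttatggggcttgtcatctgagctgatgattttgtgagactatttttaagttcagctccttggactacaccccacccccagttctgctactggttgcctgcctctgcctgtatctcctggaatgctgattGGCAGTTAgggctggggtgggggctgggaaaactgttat
Piwil1 (chr5:128735996-128736295, plus strand): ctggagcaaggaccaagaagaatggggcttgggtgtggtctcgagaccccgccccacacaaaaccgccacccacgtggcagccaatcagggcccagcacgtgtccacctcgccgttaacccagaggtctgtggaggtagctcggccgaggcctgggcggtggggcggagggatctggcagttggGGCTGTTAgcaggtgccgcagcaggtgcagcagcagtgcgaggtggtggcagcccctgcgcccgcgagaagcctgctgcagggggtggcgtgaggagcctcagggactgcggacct
Rfx2 (chr17:56830959-56831258, minus strand): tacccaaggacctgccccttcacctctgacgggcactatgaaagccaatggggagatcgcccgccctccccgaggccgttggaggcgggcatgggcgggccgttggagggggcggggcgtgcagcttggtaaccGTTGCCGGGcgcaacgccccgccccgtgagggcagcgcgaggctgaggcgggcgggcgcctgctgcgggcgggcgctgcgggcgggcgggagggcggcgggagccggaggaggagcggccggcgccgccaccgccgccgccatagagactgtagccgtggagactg

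**Figure D2:**
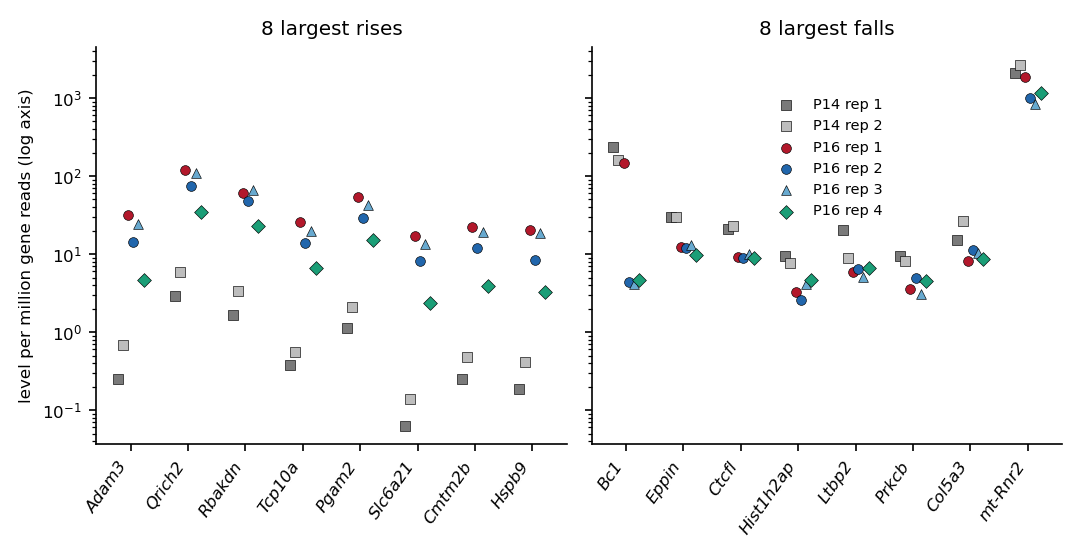
Level in CPM (log axis) of the 8 genes with the largest rise and the 8 with the largest fall, by library of the Cre control. Each point is 1 library, and the 16 genes were chosen so that their P14 and P16 points do not overlap. Bc1 lies near 4 CPM in the 3 P16 libraries of the other run and at 147 in P16 replicate 1.

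The plot of the largest rises and falls shows called genes chosen by size of change. They were ranked among genes with a mean of at least 5 CPM and no overlap between stages. Genes with predicted, Riken or accession names and pseudogenes were left out. Adam3, a surface protein of sperm, had the largest rise among those ranked, at 0.248 and 0.690 CPM at P14 and 31.6, 14.1, 23.9 and 4.63 at P16 (4.04 ± 0.58, adjusted p = 0.00165). Qrich2, a protein of the sperm flagellum, rose from 2.92 and 5.86 CPM at P14 to 118, 73.6, 108 and 34.9 at P16 (4.03 ± 0.42, adjusted p = 0.000853). Pgam2, the muscle form of phosphoglycerate mutase, also made in sperm, stood at 1.12 and 2.07 CPM at P14 and 53.5, 29.2, 42.3 and 14.97 at P16 (3.98 ± 0.41, adjusted p = 0.000853). The remaining 5 rose by 3.76 to 4.00: the noncoding RNA Rbakdn, the t-complex gene Tcp10a, Slc6a21 of the solute carriers, Cmtm2b of the CMTM membrane proteins, and Hspb9, a small heat shock protein of the testis. All 8 calls held without any single library and with run as a covariate.

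Bc1, a short noncoding RNA made by RNA polymerase III, was measured at 236 and 162 CPM at P14 and 147, 4.44, 4.14 and 4.63 at P16. The P16 libraries of the other run were the low ones, and its change of -4.09 ± 1.14, adjusted p = 0.0424 became -0.41 (adjusted p = 0.275) with run as a covariate, and it was the only gene called for the run itself (-4.91 ± 0.21). The Bc1 call was also lost without any one of P14 replicates 1 and 2 and P16 replicates 2, 3 and 4. The mitochondrial ribosomal RNA mt-Rnr2, which was not called for the run, went from 2097 and 2643 CPM at P14 to 1852, 1009, 826 and 1168 at P16, and its change of -1.02 became -0.35 (adjusted p = 0.295); leaving out P14 replicate 1 or 2 or P16 replicate 2 or 3 ended its call. Ribosomal RNA was removed from these libraries, and how far the mt-Rnr2 level reflects that step was not tested. Eppin, a protease inhibitor that Sertoli cells and epididymis make, fell from 29.4 and 29.6 CPM at P14 to 12.3, 11.9, 13.02 and 9.85 at P16 (-1.299 ± 0.15, adjusted p = 0.000927). Ctcfl, the germ cell paralogue of the chromatin factor CTCF, fell from 20.9 and 22.8 CPM at P14 to 9.24, 8.88, 10.0 and 8.81 at P16 (-1.198 ± 0.15, adjusted p = 0.00101). Hist1h2ap (-1.17), a histone gene, and Prkcb (-1.05), a protein kinase C, were called but not without P14 replicate 1, and Col5a3 (-1.02), a collagen, not without P14 replicate 2. Ltbp2 (-1.11), a matrix protein, lost its call without P14 replicate 1, P16 replicate 2 or P16 replicate 3.

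Of the 14 genes of differentiating spermatogonia and meiotic entry, 5 fell and 1 rose, with a median of -0.43. Kit, the receptor that marks differentiating spermatogonia, fell from 176 and 169.9 CPM at P14 to 104, 107, 99.7 and 125 at P16 (-0.67 ± 0.10, adjusted p = 0.00257). Stra8, the retinoic acid target that starts meiosis, fell from 111 and 121 CPM at P14 to 66.7, 62.5, 60.2 and 70.8 at P16 (-0.83 ± 0.10, adjusted p = 0.00096), and its partner Meiosin from 103 and 93.9 CPM at P14 to 63.3, 47.2, 52.0 and 60.9 at P16 (-0.82 ± 0.13, adjusted p = 0.00267). In each of the 3 genes the P16 libraries lay below both P14 libraries, and the calls held without any single library. Groups that did not overlap, in either direction, were found for 37.3% of all genes tested. X-linked Rhox13 (-0.69 ± 0.15) and Uchl1 (-0.40 ± 0.12), a ubiquitin hydrolase of spermatogonia, also fell, while Dmrtb1, a factor at the mitosis to meiosis switch, rose by 0.40 ± 0.10. Without P14 replicate 1, 3 of the 5 falls were called and the rise was not. With run as a covariate 8 of the 14 fell, 4 of the 5 among them, and none rose. In the testes labelled control 7 of the 14 fell and 1 rose, while Stra8 changed by -0.09 and Meiosin by 0.07.

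Among the 15 tested genes of undifferentiated spermatogonia, which include stem cells, 2 fell and 1 rose, beside 3.13% and 8.42% of all genes tested. Zbtb16 (PLZF) fell from 110.2 and 88.0 CPM at P14 to 49.9, 68.9, 65.9 and 77.0 at P16 (-0.60 ± 0.16, adjusted p = 0.0355) and Sall4, a partner of it, from 79.3 and 77.8 CPM at P14 to 44.9, 52.3, 46.2 and 61.6 at P16 (-0.62 ± 0.13, adjusted p = 0.0125). The call of Zbtb16 was lost without P14 replicate 1, P16 replicate 2 or P16 replicate 3, and that of Sall4 without either P14 library. Id4, a marker of stem cells that spermatocytes also express, rose from 18.0 and 17.6 CPM at P14 to 47.8, 38.3, 42.2 and 33.8 at P16 (1.15 ± 0.14, adjusted p = 0.00102). Gfra1, Ret and Etv5 of the GDNF response were not called, with changes of -0.13, -0.40 and 0.10. Of the 15, 4 fell and 1 rose with run as a covariate.

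Of 26 genes of early prophase 3 rose, 2 fell and 21 were not called, with a median of 0.03. Over all genes tested 8.42% rose and 3.13% fell. With run as a covariate 7 rose and 2 fell, with a median of 0.31, and in the control 12 rose and none fell, with a median of 0.15. Syce1, a central element protein of the synaptonemal complex, rose from 64.6 and 65.6 CPM at P14 to 117, 96.5, 107 and 85.3 at P16 (0.63 ± 0.12, adjusted p = 0.00886), and Hsf2bp, a partner of BRCA2 in recombination, by 0.56 ± 0.14. Mei1 and Mei4, which are needed to make the meiotic DNA breaks, fell from 52.8 and 49.2 CPM at P14 to 29.5, 23.5, 29.6 and 34.5 at P16 (-0.80 ± 0.15, adjusted p = 0.00615) and from 5.28 and 5.52 CPM at P14 to 1.92, 2.77, 2.97 and 2.81 at P16 (-0.93 ± 0.22, adjusted p = 0.0212). None of the 5 calls held without P14 replicate 1. Mei4 and Hsf2bp were not called without P14 replicate 2 either, nor was Hsf2bp without P16 replicate 3. The axis and synapsis genes Sycp1 (-0.02 ± 0.13), Sycp3 (0.09 ± 0.11) and Hormad1 (0.19 ± 0.15) had overlapping groups. At the crossover step, Cntd1, a cyclin-like crossover factor, rose from 49.1 and 72.4 CPM at P14 to 163, 96.7, 126 and 105 at P16 (1.00 ± 0.20, adjusted p = 0.0101) and the mismatch repair gene Mlh3 by 0.65 ± 0.16, and both calls were lost without P14 replicate 1, that of Mlh3 also without P16 replicate 3. X-linked Tex11, needed for crossovers, fell from 161 and 149 CPM at P14 to 88.2, 77.1, 84.5 and 101 at P16 (-0.83 ± 0.11, adjusted p = 0.00133), and the other 12 of 15 genes on this list were not called. The fit with run as a covariate had 4 of the 15 risen and 1 fallen.

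Of 19 genes of DNA replication 9 fell and none rose (median -0.27). Mcm2, a subunit of the replicative helicase, fell from 227 and 193 CPM at P14 to 117, 137, 132 and 159.7 at P16 (-0.63 ± 0.12, adjusted p = 0.00888), and other falls were those of Cdc6 (-0.65 ± 0.14), its loader, and the nucleotide synthesis enzymes Rrm2 (-0.67 ± 0.14) and Tyms (-0.67 ± 0.17). Pcna, the sliding clamp, was not called (0.07 ± 0.09). Only 2 of the 9 calls held without P14 replicate 1 and 3 without P14 replicate 2, while 6 held with run as a covariate. Of 17 M phase genes 6 fell and 2 rose (median -0.17), beside 3.13% and 8.42% of all genes tested. The falls included the cyclins Ccna2 (-0.69 ± 0.14) and Ccnb1 (-0.48 ± 0.12), the kinase Aurkb (-0.54 ± 0.13) and the centromeric histone Cenpa (-0.58 ± 0.17). Cdc20, which activates the anaphase ligase, and Aurka rose by 0.37 ± 0.09 and 0.47 ± 0.13. None of the 8 calls held without P14 replicate 1. Of the 6 falls, 2 held without P14 replicate 2, 1 without P16 replicate 2, 1 without P16 replicate 3 and 1 with run as a covariate. Of the 2 rises, none held without P14 replicate 2 or P16 replicate 3.

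X-linked genes were lower at P16 as a class. Of 807 tested, 659 (81.7%) had a change below 0, 101 fell (12.5%, against 2.65% of 17943 autosomal genes) and 3 rose, and the median change was -0.24, against -0.01 for autosomes. X-linked genes took 2.787% and 2.788% of the gene reads at P14 and 2.140%, 2.402%, 2.226% and 2.441% at P16. Counting error is small beside this, with a 95% Wilson interval of 2.133% to 2.146% for P16 replicate 1. The groups do not overlap, and the difference in means of -0.49 points gave p = 0.133 in the exact permutation test (two-sided), the smallest p that 2 against 4 libraries allow. With run as a covariate the median was -0.35, and 54 X-linked genes fell. Of the 101 falls, 11 were still called without P14 replicate 1, 28 without P16 replicate 3, 48 without P14 replicate 2 and 49 without P16 replicate 2. The 3 that rose were Tsga8, a testis gene, at 0.186 and 0.414 CPM at P14 and 1.51, 1.15, 1.29 and 0.886 at P16, and the predicted genes Gm5380 and Gm9050, at 0.97 and 1.07 on the log2 scale, named here after their values were seen. The largest fall among X-linked genes with a mean of at least 5 CPM was that of the testis-expressed gene Tex16, from 50.9 and 54.6 CPM at P14 to 34.3, 23.8, 21.6 and 31.4 at P16 (-0.94 ± 0.18, adjusted p = 0.00735). Tex16 was not called with run as a covariate (-0.61), and in the control it changed by -0.15.

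**Figure D3:**
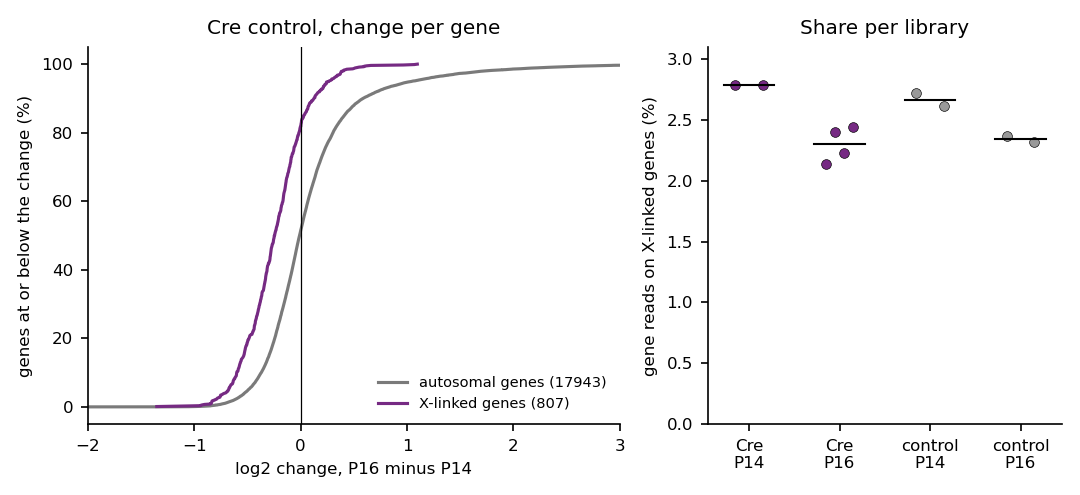
Left, cumulative share of genes (vertical axis, %) at or below each log2 change from P14 to P16 in the Cre control, for 17943 autosomal and 807 X-linked genes, with the axis cut at -2 and 3. Right, share of gene reads on X-linked genes (%), 1 point per library with the group mean as a line. The X-linked curve lies to the left of the autosomal one, and the P16 libraries of both control types lie below their P14 libraries.

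Several X-linked housekeeping genes have intronless autosomal copies that germ cells use while the X is silent. Across 8 such pairs, 3 of the X-linked parents fell and none rose (median -0.38), and 5 of the autosomal copies rose and none fell (median 0.65). The ribosomal protein gene Rpl10 fell from 172 and 170.3 CPM at P14 to 133, 118, 101 and 143 at P16 (-0.48 ± 0.13, adjusted p = 0.0364), while its copy Rpl10l rose from 49.6 and 62.2 CPM at P14 to 135, 87.2, 110.0 and 85.4 at P16 (0.88 ± 0.18, adjusted p = 0.0102). In the next pair, Rpl39 fell from 45.6 and 43.2 CPM at P14 to 25.6, 29.9, 24.8 and 34.0 at P16 (-0.64 ± 0.14, adjusted p = 0.0162) and Rpl39l rose from 52.2 and 45.2 CPM at P14 to 87.6, 67.4, 86.5 and 69.7 at P16 (0.66 ± 0.13, adjusted p = 0.00971). Cstf2, a polyadenylation factor, fell (-0.37 ± 0.09) and its copy Cstf2t was not called (0.34 ± 0.12). Pgk1 (-0.32 ± 0.11) and Pdha1 (-0.13 ± 0.14), a subunit of pyruvate dehydrogenase, were not called, while Pgk2 (2.99 ± 0.54), Pdha2 (1.05 ± 0.18) and Rbmxl2 (0.63 ± 0.12), an RNA-binding protein, rose. Parent and copy are close in sequence, so reads could be split between them. None of the 3 falls among the parents was called without P14 replicate 1, without P14 replicate 2 or without P16 replicate 3, and 1 of the 5 rises among the copies was called without P14 replicate 1.

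**Figure D4:**
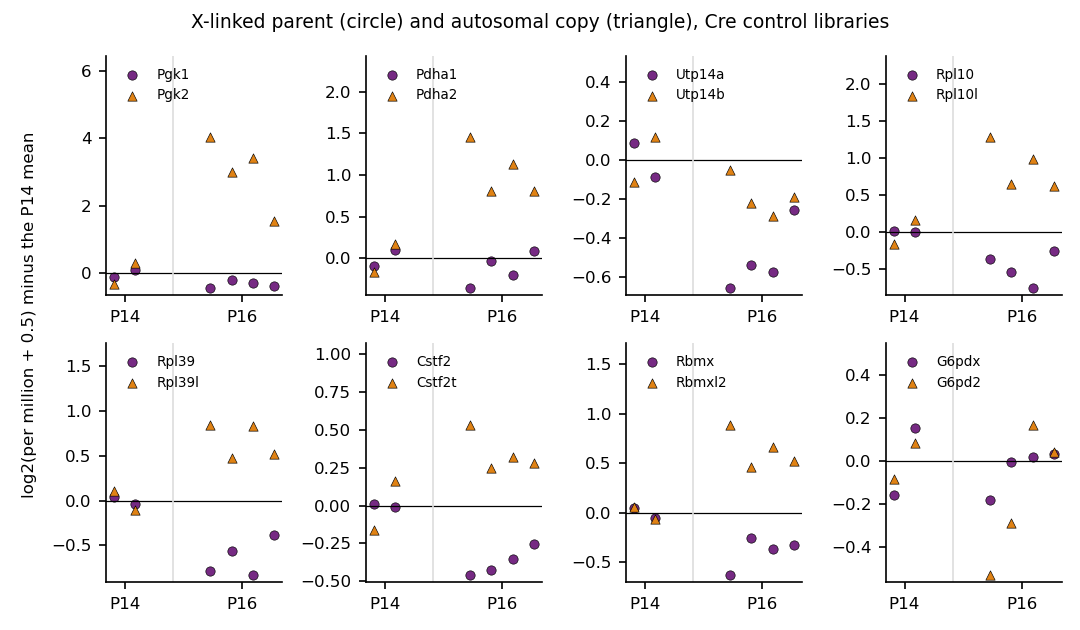
Level of 8 X-linked parent genes (circles) and their autosomal copies (triangles) in each Cre control library, as log2(CPM + 0.5) minus the gene's P14 mean, with 2 libraries at P14 and 4 at P16. For Rpl10, Rpl39, Cstf2 and Rbmx all 4 P16 circles lie below 0 and all 4 P16 triangles above 0, and vertical scales differ between panels.

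The somatic cell markers that were called mostly fell, with the most in the peritubular myoid and stromal list (4 of 14). Over all genes tested 8.42% rose and 3.13% fell. Of 20 Sertoli cell genes 2 fell: Amh, the hormone of immature Sertoli cells, from 81.8 and 93.0 CPM at P14 to 43.4, 66.4, 62.2 and 61.0 at P16 (-0.60 ± 0.16, adjusted p = 0.0343), and X-linked Rhox5, an androgen-regulated homeobox gene, from 2.98 and 2.28 CPM at P14 to 0.639, 0.575, 0.948 and 0.739 at P16 (-1.35 ± 0.23, adjusted p = 0.00406). The Rhox5 call was lost without P14 replicate 1, and the Amh call without P14 replicate 1, P14 replicate 2 or P16 replicate 3. Sox9 (-0.0049 ± 0.10), Wt1 (-0.14 ± 0.09) and Gata4 (-0.06 ± 0.10), which define Sertoli cells, were not called. The summed Sertoli level was 7419 and 7200.3 CPM at P14 and 6456, 8044, 7368 and 7307 at P16, with overlapping groups. Of 12 Leydig cell genes none rose or fell, including Nr5a1 (0.02 ± 0.11), the regulator of steroid synthesis, and the lipoprotein receptor Scarb1 (0.07 ± 0.12).

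Of 14 peritubular myoid and stromal genes 4 fell, with a median of -0.45. Actg2, a smooth muscle actin, fell from 8.95 and 7.24 CPM at P14 to 2.62, 3.55, 2.37 and 2.66 at P16 (-1.39 ± 0.22, adjusted p = 0.00268), and Acta2, the actin that marks myoid cells, from 398 and 257 CPM at P14 to 182, 202, 159 and 194 at P16 (-0.80 ± 0.16, adjusted p = 0.00898). Cnn1 (-1.17 ± 0.25), a calponin of smooth muscle, and Igf1 (-0.98 ± 0.21), a growth factor, fell too. Acta2 and Cnn1 were not called without P14 replicate 1, nor Igf1 without P14 replicate 2, and 2 of the 4 held with run as a covariate. Of 14 macrophage genes 1 rose and 1 fell, beside 8.42% and 3.13% of all genes tested. Cd74, the invariant chain of MHC class II, rose from 3.48 and 3.66 CPM at P14 to 6.92, 9.35, 8.19 and 7.83 at P16 (1.07 ± 0.19, adjusted p = 0.00496). Lyz2, a lysozyme, fell (-0.56 ± 0.14), and neither gene was called with run as a covariate. The Lyz2 call was also lost without either P14 library or without P16 replicate 1 or 3. The 9 endothelial genes held no call, with Cdh5 at -0.28 ± 0.14 and Pecam1 at -0.21 ± 0.17. Blood contributed unevenly: the 7 red cell genes summed to 63.9 and 74.5 CPM at P14 and 29.1, 27.2, 18.7 and 129 at P16. P16 replicate 4 held the most. It had the smallest rise of the pachytene, acrosome, axoneme and transcription factor lists, but not of the piRNA, metabolic isoform and crossover lists. The part of blood in any other value was not tested.

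Mitochondrially encoded genes fell in 5 of 10 tested members (median -0.57), among them mt-Nd4 (-0.59), mt-Nd1 (-0.56), mt-Nd5 (-0.55) and mt-Cytb (-0.53), subunits of the respiratory chain. None of the 5 was called without either P14 library, 2 were without P16 replicate 2 and 1 without P16 replicate 3. With run as a covariate none of the 5 was called and the median was -0.25. Retinoic acid genes were nearly level, with 1 of 18 risen and 1 fallen, beside 8.42% and 3.13% of all genes tested. Lrat, which stores retinol as esters, rose from 0.559 and 2.90 CPM at P14 to 8.31, 5.28, 6.29 and 5.51 at P16 (1.83 ± 0.39, adjusted p = 0.0127) and Cyp26b1, which degrades retinoic acid, fell from 394 and 275 CPM at P14 to 201, 236, 174 and 242 at P16 (-0.64 ± 0.16, adjusted p = 0.0273). Without P14 replicate 1 neither was called, nor was Cyp26b1 without P16 replicate 1 or 3 or with run as a covariate. Ythdc2 itself stood at 72.9 and 81.5 CPM at P14 and 86.5, 70.1, 130.3 and 80.8 at P16, with overlapping groups (0.21 ± 0.20, adjusted p = 0.531). Its partner Meioc (-0.07 ± 0.16, adjusted p = 0.831) and the associated RNA-binding protein Rbm46 (-0.05 ± 0.12, adjusted p = 0.847) were not called either.

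The testes labelled control cover the same interval in 4 other libraries depleted with another kit (TruSeq Ribo-Zero) and sequenced in a run of their own. There 2905 genes rose (17.0% of 17070 tested) and 1907 fell (11.2%). Of the 1553 Cre control rises tested in both, 92.5% also rose in the control, and of the 572 falls 37.1% also fell. In reverse, 50.3% of the control's 2859 shared rises and 11.2% of its 1893 shared falls were called in the Cre control. Across 16713 genes tested in both the changes correlated with Pearson's r = 0.82, given as a description, since genes are not independent replicates. Pachytene genes had a median change of 2.02 in the Cre control and 1.296 in the control, axoneme genes 1.86 and 1.60, and acrosome genes 2.20 and 1.85. Other lists were less alike. Macrophage genes had 0.02 and -0.63, with 9 of 14 fallen in the control against 1 in the Cre control, and of the Sertoli genes 12 of 19 fell in the control against 2 of 20. Interferon-stimulated genes had 0.85 and -0.52. These differences between lists were not tested. X-linked genes had -0.24 and -0.19, with 2.720% and 2.614% of gene reads at P14 and 2.371% and 2.320% at P16 in the control.

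**Figure D5:**
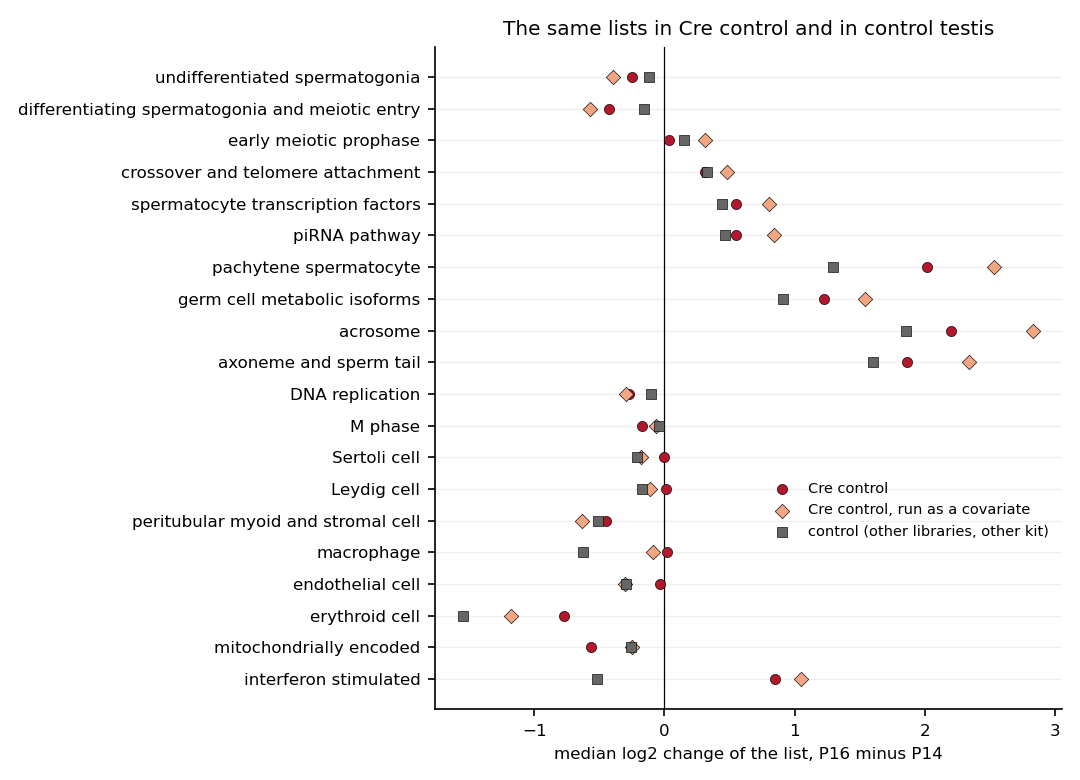
Median log2 change from P14 to P16 (horizontal axis) of each gene list in the Cre control (circles), in the Cre control with run as a covariate (diamonds) and in the control, which shares no library with it (squares). Pachytene, metabolic, acrosome and axoneme genes lie to the right in all 3, while the interferon and macrophage lists lie apart between the control types.

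The difference between the stage changes was tested itself, as an interaction over the 10 libraries. Of 19382 genes limma called none (0%), with 1328 at an unadjusted p under 0.05 and a smallest adjusted p of 0.192, and edgeR called none, while DESeq2 called 14. Control type and kit are the same split in this comparison, and the control libraries had a run of their own, so these cannot be told apart. Within the Cre control, the run of P16 replicates 2 to 4 held no P14 library, so run is mixed with stage there and enters the interaction. Ctcfl, Stra8, Meiosin and Mei1 were among the 12 that DESeq2 placed lower in the Cre control, and 2 were placed higher. Ctcfl changed by -1.198 ± 0.15 in the Cre control and by -0.01 ± 0.09 in the control, at 16.3 and 16.1 CPM at P14 and 15.01 and 17.2 at P16. For Stra8 the control stood at 116 and 108 CPM at P14 and 98.6 and 112 at P16, a change of -0.09 ± 0.06 against -0.83 ± 0.10 in the Cre control. Meiosin changed by 0.07 in the control against -0.82 in the Cre control, and Mei1 by 0.13 against -0.80. The interaction in limma had an adjusted p of 0.192 for Ctcfl and 0.571 for Stra8, Meiosin and Mei1, so none of these differences passed that test.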

How the data were processed

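Testis RNA was prepared with the RNeasy Plus Mini kit and made into NEBNext Ultra II Directional libraries, per the labels' protocols. The submitters' processing notes name Trim Galore, STAR, HTSeq, DESeq2 and the builds GRCm39 and mm39, without versions used here. The deposited signal values are gene read numbers that the authors divided by a library size factor, set within each of 4 tables; whole reads were recovered for 100% of values (tolerance 0.05). Of 20 columns 0 were unmatched. The strand setting of the counting is not given in the sources used here.

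Gene rows alone were rescaled to 1000000 reads (CPM), genes with at least 0.5 CPM in at least 2 libraries were kept, and log2(value + 0.5) was fitted with limma 3.58.1 (lmFit and eBayes with trend, R 4.3.3), the Cre control P16 libraries against P14. The interaction used 10 libraries, Cre control and control. Tests were checked on simulated data. Alternatives were other pseudocounts, filters and scalings, edgeR 4.0.16 and DESeq2 1.42.0 on the recovered reads, each library left out, a replicate block and sequencing run. Cre control libraries held 14494867 to 23200252 gene reads, and 32.7% to 41.1% of all reads were unmapped. No replicate pair agreed within sampling noise.

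The members and lists were chosen with earlier results of these data known. Named were the 8 largest rises and falls with no overlap between stages and a mean of at least 5 CPM, up to 4 called members of each list, Ythdc2, Meioc, Rbm46 and X-linked genes as a class. The 8 largest rises and falls were taken without genes of predicted, Riken or accession names and without pseudogenes. Other list members were picked after their values were seen, to show members that were not called or went the other way. Of 403 list genes, those without a match by symbol, older symbol or RefSeq synonym were left out. Gene names, biotypes and chromosomes came from a GRCm38 annotation. Among the genes named by rule, 30 overlap a gene on the other strand, including Adam3, Cmtm2b, Ctcfl, Hist1h2ap, Ltbp2, Prkcb, Col5a3, Id4, Sall4, Mei4, Syce1, Cntd1, Tex11, Piwil1, Dnah17 and Dnah6, and their reads cannot be told apart without strand. Reads of Tcp10a, Hist1h2ap, the globins, the actins and the ribosomal protein pairs may be shared with near-identical copies.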

Additional observations from a re-analysis of the deposited data

Results flagged for a closer look

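In 8 of the 120 sets of 4 P16 values examined, 1 library lay apart from the other 3 by Dixon's criterion, which chance meets in about 1 set in 20. Bc1 stood at 146.9 CPM in P16 replicate 1, against 4.14 to 4.63 in the other P16 libraries. The other 7 all concern P16 replicate 4. In that library 3 genes of dividing cells were high: the cyclin Ccna2 at 67.9 CPM (others 49.7 to 52.0), the centromeric histone Cenpa at 36.9 (28.1 to 28.9) and the mitotic kinase Aurkb at 27.9 (21.9 to 22.5). The globin genes Hbb-bs, at 86.1 (11.2 to 18.0), and Hba-a1, at 22.5 (3.62 to 6.45), were high there too, and the red cell list summed to 129.2 (18.7 to 29.1). Jun, an immediate early gene, stood at 67.8 (53.4 to 54.3).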

How the results depend on the processing

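For the Cre control, no called gene changed sign under any alternative. Without the eBayes trend 1009 genes rose and 229 fell, with run as a covariate 350 fell, within the run of the P14 libraries 838 rose and 55 fell (P16 replicate 1 is then the lone P16 library), and over all 16 libraries 2722 rose and 2297 fell. Leaving out 1 library gave 529 to 1879 rises and 61 to 986 falls. A lone library left in a group is assumed to vary like the others. Of the 81 called genes named, 34 kept the call with any 1 library left out; 43 lost it without P14 replicate 1 and 19 with run as a covariate. For the interaction, DESeq2 called 14 genes, with 6389 left without an adjusted p, and leaving out 1 library gave 0 to 12 (12 without control P14 replicate 1). The cause of these shifts was not tested. The labels do not say whether replicate numbers pair the samples. Deviations of the libraries numbered 1 and 2 correlated at -0.10 in the Cre control and -0.04 in the control. This cannot decide the question, as Cre control P16 replicate 2 was in another run. With the replicate block 1445 genes rose and 317 fell. There P16 replicates 3 and 4 have no P14 partner, so the change rests on replicates 1 and 2. Depth limits genes under 0.5 CPM, such as most acrosome genes left out.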

Other observations

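Noncoding classes differed in their share of rises, which was 8.42% over all genes tested. Of 515 long intergenic noncoding RNAs tested (lincRNA in the annotation), 95 rose (18.4%) and 2 fell, of 465 antisense ones 67 rose (14.4%) and none fell, and of 101 that share a promoter with a gene in the other direction 12 rose (11.9%). Of 247 processed transcripts 18 rose (7.29%) and none fell, and of 51 sense intronic ones none rose and 2 fell, with 74.5% below 0 and a median of -0.23. Among 14749 protein-coding genes 1317 rose (8.93%) and 551 fell. The median change was 0.22 for lincRNA genes, 0.23 for antisense genes and -0.03 for protein-coding genes, and in the control it was 0.19, 0.18 and -0.02. Antisense genes overlap coding genes, and without strand their reads cannot be told apart.

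Of 13 interferon-stimulated genes tested, all had a change above 0 and 1, Oasl2, rose, with a median of 0.85. The summed level was 58.5 and 115 CPM at P14 and 98.9 to 163 at P16, so the groups overlapped and P14 replicate 1 was lowest. The median was 0.083 without P14 replicate 1, with no rise, and 1.57 without P14 replicate 2, with 10 rises. Without P16 replicate 4 there were 5 rises, and with the replicate block 7. Oasl2 was not called without P14 replicate 1, without P16 replicate 1, 2 or 3, or with run as a covariate. In the control the median was -0.52. Of 11 immediate early genes none was called.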
